A study of Homo sapiens with 94 samples.

Results

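The TAM receptors are a family of receptor tyrosine kinases named after TYRO3, AXL and MERTK, and their main ligands are the secreted proteins GAS6 and PROS1 (protein S). The 5 genes were followed by symbol in RNA-seq of NCI-H226 tumors exposed to the TEAD inhibitor K-975, and all 5 were found among the 20239 genes of the table. The question was how the mRNA of the receptors and of their ligands behaved at each dose and time. NCI-H226 is an established line grown from a human malignant pleural mesothelioma, and all tumors of the series, controls included, share its deletion of NF2. Tumors grew under the skin of female CB17 SCID mice, which lack B and T lymphocytes but keep macrophages and other host cells, and each library is 1 tumor of 1 animal. Mice received K-975 once by mouth at 30, 100 or 200 mg/kg, vehicle (an EtOH, Solutol and glucose solution), or no treatment, in 3 studies with tumors taken 1 h, 3-6 h or 24 h later. The untreated group held 5 tumors in each study. The dosed groups held 5 tumors each at 1 h and 24 h, vehicle held 5 at 1 h and 4 at 24 h, and at 3-6 h vehicle and each dose held 10 tumors in 2 cage groups of 5. The labels do not say which cage group was taken at 3 h and which at 6 h. Vehicle and 200 mg/kg were given in 20 mL/kg, and 30 and 100 mg/kg in 10 mL/kg. At 1 h and 24 h all mice of a group shared a cage group, and the effects of cage and of treatment cannot be told apart there.

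As background, GAS6 and protein S bind phosphatidylserine on dying cells or membrane debris with their vitamin K-dependent domain and bind TAM receptors with the other end, so that they bridge a receptor-bearing cell to an apoptotic one. GAS6 activates all TAM receptors, whereas protein S acts on TYRO3 and MERTK and not on AXL. MERTK is best known from macrophages that engulf dead cells, and AXL from carcinoma and mesothelioma cells, where it has been tied to invasion and drug resistance. AXL has also been described as a target of YAP1, the co-activator that works through the TEAD factors inhibited by K-975.

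Since K-975 acts on TEAD factors, the DNA just before the start sites of AXL, which encodes the receptor that changed, and of GAS6, its ligand, is shown first. The sequences are those of RefSeq (GRCh38.p14), read 5′ to 3′ on the strand of the gene, and end before the first exon. AXL has a first start with chr19:41218973-41219202 (plus strand) before it. A second annotated start of AXL lies in an intron of the longer transcript, with chr19:41226505-41226754 before it. GAS6 is on the minus strand, with chr13:113864077-113864326 before it. Capitals mark the TEAD motif CATTCC, the AP-1 motif TGANTCA and the SP1 motif GGGCGG, each searched on both strands, and no marked motif overlaps another.
AXL first start: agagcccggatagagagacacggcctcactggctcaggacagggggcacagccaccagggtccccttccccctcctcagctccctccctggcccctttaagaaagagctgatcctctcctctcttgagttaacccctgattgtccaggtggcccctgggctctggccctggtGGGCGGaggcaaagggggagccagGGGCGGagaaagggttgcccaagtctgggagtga
AXL second start: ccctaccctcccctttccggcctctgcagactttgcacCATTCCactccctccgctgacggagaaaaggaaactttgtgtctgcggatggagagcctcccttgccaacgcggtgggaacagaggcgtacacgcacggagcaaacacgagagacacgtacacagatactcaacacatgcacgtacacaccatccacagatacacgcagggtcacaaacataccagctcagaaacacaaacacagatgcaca
GAS6 start: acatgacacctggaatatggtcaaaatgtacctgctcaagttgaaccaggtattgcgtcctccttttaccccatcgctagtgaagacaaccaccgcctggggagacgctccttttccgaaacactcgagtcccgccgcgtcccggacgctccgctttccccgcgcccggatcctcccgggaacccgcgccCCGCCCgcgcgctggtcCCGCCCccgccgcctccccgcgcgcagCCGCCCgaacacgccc

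The TEAD letters stood once in the window of the second AXL start, 212 bases before it, and not in the window of the first AXL start or of GAS6. They were not in the windows of MERTK and PROS1 or in either window of TYRO3. Of 35116 RefSeq windows of 250 bases, 11.9% held the TEAD letters, 6.57% the AP-1 letters and 42.6% the SP1 letters. The SP1 letters stood at 2 places before the first AXL start and at 3 before GAS6. A match of letters in so short a window is a description and not a binding site, and the values below do not tell the transcripts of a gene apart.

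Values were FPKM (fragments scaled to transcript length and to the total mapped fragments of the library), which hold no read counts, so the number of reads is unknown. As a stand-in for depth, genes that reached 1 FPKM were counted in each library. Their number lay between 11344 and 11665 in 91 libraries. It was 702 in replicate 1 at 30 mg/kg and 24 h, 7196 in replicate 5 at 100 mg/kg and 24 h, and 8531 in replicate 1 at 200 mg/kg and 1 h. These 3 shallow libraries were left out of the values below unless stated. All 10 mesothelial markers examined had a median of at least 1 FPKM, among them calretinin (CALB2, 612 FPKM) and mesothelin (MSLN, 255 FPKM). Of 10 macrophage markers, 6 had a median of 0, among them AIF1, C1QA, C1QB and C1QC, which were listed at 0 in all 91 libraries. CD68 had a median of 139 FPKM and CD14 of 1.37 FPKM, and neither was listed at 0 in any library kept. CSF1R had a median of 0.767 FPKM and was listed at 0 in 8 libraries. How reads from mouse cells were treated is not given in the sources used here.

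The family was uneven in these tumors, with 1 receptor and 1 ligand at high levels, TYRO3 at a low level, and MERTK and PROS1 near 0. FPKM are per length of transcript, but each gene also passed through capture by probes, so levels of different genes compare only roughly. GAS6 had a mean of 651 FPKM over the 91 libraries (463 to 847) and ranked 72nd of 20239 genes. AXL had a mean of 184 FPKM (121 to 240) and ranked 417th. The mean level of GAS6 was 3.54 times that of AXL, and the mean level of AXL was 102 times that of TYRO3. TYRO3 had a mean of 1.80 FPKM (0.840 to 2.95), with 90 of 91 libraries at 1 FPKM or more. MERTK had a median of 0.129 FPKM and was listed at 0 in 27 libraries. PROS1 had a median of 0.111 FPKM, a highest value of 0.755 FPKM, and 39 libraries listed at 0. In both of these genes a 0 in a table without counts does not show that the gene was silent.

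**Figure D1:**
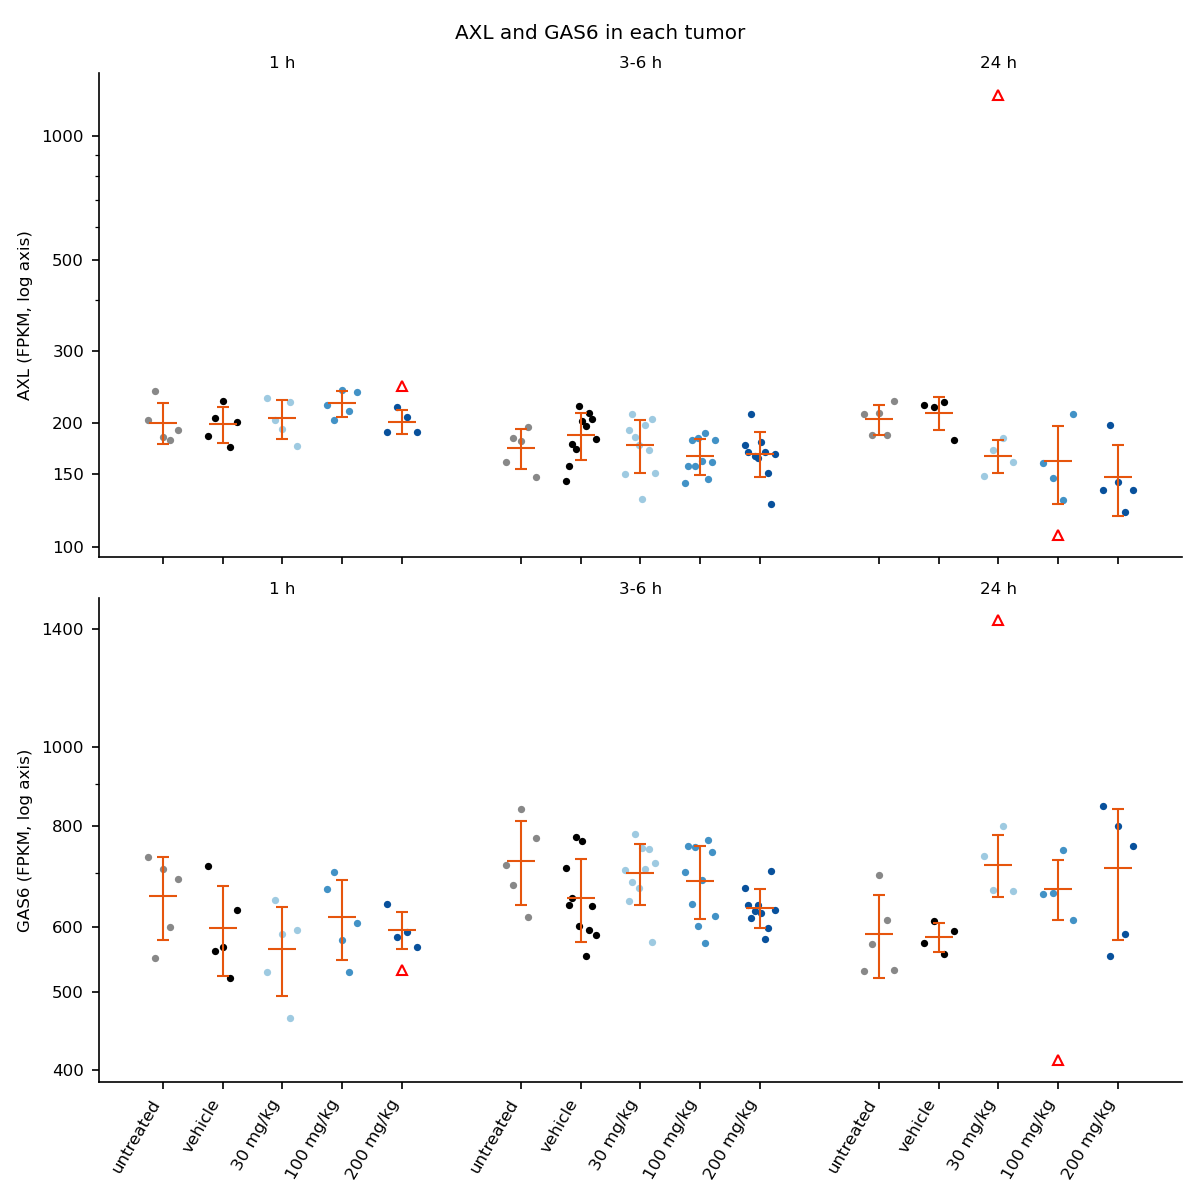
AXL (top) and GAS6 (bottom) in FPKM on log axes, with 1 point for each tumor by treatment and time, bars for the mean and SD of the libraries kept, and open red triangles for the 3 shallow libraries. At 24 h, 4 of 5 tumors at 200 mg/kg had less AXL than every vehicle tumor (182 to 225 FPKM), and the shallow library at 30 mg/kg stood at 1260 FPKM.

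AXL (ENSG00000167601.11, chromosome 19, 41219203 to 41261766, GRCh38, plus strand, 20 exons in its first listed transcript) encodes the receptor tyrosine kinase that binds GAS6. Its mRNA fell at 24 h after 200 mg/kg K-975, and it was the only call among the family members tested in the 9 comparisons of a dose with vehicle. The 4 vehicle tumors at 24 h had 221, 219, 225 and 182 FPKM. The 5 tumors at 200 mg/kg had 138, 198, 144, 121 and 138 FPKM. All but 1 of these (replicate 2) lay below every vehicle tumor, and all 5 lay below the vehicle mean. The vehicle mean was 212 FPKM (SD 19.9, n = 4) and the mean at 200 mg/kg was 148 FPKM (SD 29.1, n = 5), a change of -30.3%. On the log2(FPKM + 1) scale the difference was -0.53 (SE 0.12, limma adjusted p = 0.00186). AXL ranked 611th from the lowest among the 13036 genes tested, whose median difference was 0.037.

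Of the 4 family members that passed the filter on low values (AXL, TYRO3, GAS6 and, only through 8 dosed tumors, MERTK), 1 was called lower and 0 higher in that comparison, in which 7.41% of all genes tested were called. The AXL call stood without any single tumor of the groups compared, with an adjusted p between 9.96e-05 and 0.0135. It was lost when only the vehicle and 200 mg/kg tumors entered the fit (-0.53, adjusted p = 0.0557), and in the fit that kept the shallow libraries (-0.53, SE 0.30, adjusted p = 1), since all groups share 1 estimate of the spread. Over the alternatives that keep all tumors of these groups, the limma adjusted p lay between 0.000159 and 1. In bulk tumors, fewer AXL-bearing cells and less AXL mRNA per cell cannot be told apart. The summed level of the 10 mesothelial markers was 3243 to 3479 FPKM with vehicle and 3751 to 4624 FPKM with 200 mg/kg at 24 h, without overlap. Untreated tumors at 24 h had 2856 to 4381 FPKM, which overlapped with both. Summed endothelial markers (33.2 to 71.1 against 31.5 to 94.2 FPKM), fibroblast and pericyte markers (31.4 to 38.5 against 23.5 to 41.4 FPKM) and macrophage markers (144 to 226 against 127 to 206 FPKM) overlapped. Each of these sums rests mostly on 1 gene, which is KDR (median 63.9 FPKM over the 91 libraries), PDGFRB (32.0 FPKM) or CD68 (139 FPKM). The part of these cell types in the AXL result was not tested.

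At the lower doses AXL at 24 h also had lower means, but these did not pass the test. The 4 tumors at 100 mg/kg had 160, 147, 130 and 210 FPKM, of which 3 lay below every vehicle tumor. The mean was 162 ± 34.7 FPKM (SD, n = 4), a log2 difference of -0.41 (SE 0.12, limma adjusted p = 0.0768), and 1.12% of all genes tested were called at this dose. The outcome of the test turned on replicate 4, the highest of these tumors, and also on the control. Without replicate 4 the difference was -0.54 (limma adjusted p = 0.0109). With all 4 tumors, and with untreated and vehicle tumors together as control, the difference was -0.38 (limma adjusted p = 0.0276). The 4 tumors at 30 mg/kg had 148, 172, 184 and 161 FPKM, of which 3 lay below every vehicle tumor. The mean was 166 ± 15.3 FPKM (SD, n = 4), a log2 difference of -0.35 (SE 0.12, limma adjusted p = 0.311), against 0.0384% of all genes called. At both lower doses 0 of the 4 members tested were called, with 1 at 100 mg/kg and 2 at 30 mg/kg at an unadjusted limma p under 0.05, as had 14.1% and 10.0% of all genes. The shallow library at 30 mg/kg had 1260 FPKM of AXL, and with it the difference at 30 mg/kg turned to 0.24 (adjusted p = 0.533). The shallow library at 100 mg/kg had 107 FPKM, and with it the difference was -0.52 (adjusted p = 0.541).

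A linear trend with dose, with vehicle as dose 0, was tested within each study. At 24 h the slope of AXL was -0.22 on the log2 scale for each 100 mg/kg (SE 0.053, limma adjusted p = 0.00611). In this trend 5.61% of all genes tested were called. Vehicle is part of the slope, and the difference from vehicle was already -0.35 at 30 mg/kg. It was -0.41 at 100 and -0.53 at 200 mg/kg, and a graded fall among the doses alone was not tested. AXL was the 1 member called of 4, and the call was lost with only the groups compared (adjusted p = 0.0732) and with all 94 libraries (-0.36, adjusted p = 0.380). At 3-6 h the slope of AXL was -0.068 (SE 0.036, adjusted p = 0.662) and at 1 h it was 0.013 (SE 0.054, adjusted p = 1). In those studies 0 of 4 members had a trend called by limma, against 0.215% of all genes at 3-6 h and 0% at 1 h. At an unadjusted limma p under 0.05 there were also 0 members, against 7.83% and 3.41% of all genes.

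At 3-6 h AXL had a lower mean with each dose than with vehicle, and no difference passed the test. Vehicle tumors had 144 to 220 FPKM with a median of 190 FPKM, tumors at 30 mg/kg had 131 to 210, those at 100 mg/kg 143 to 189, and those at 200 mg/kg 127 to 211 FPKM. In each dose group 1 of 10 tumors lay below every vehicle tumor, and 9 of 10 lay below the vehicle mean at 100 and at 200 mg/kg. The log2 differences were -0.081 (SE 0.078, limma adjusted p = 0.876) at 30 mg/kg, -0.16 (SE 0.078, adjusted p = 0.446) at 100 mg/kg and -0.15 (SE 0.078, adjusted p = 0.702) at 200 mg/kg. At 3-6 h, 0 of 4 members were called at any dose. At an unadjusted limma p under 0.05 there was 1 member at 100 mg/kg, as for 10.3% of all genes. There were 0 members at 30 and at 200 mg/kg, against 7.03% and 7.23% of all genes. After adjustment, 0.0153%, 0.43% and 0.069% of all genes were called at 30, 100 and 200 mg/kg. The cage groups of vehicle differed among themselves, with AXL at 174 ± 28.6 FPKM (SD, n = 5) in cage group 2 and 200 ± 10.6 FPKM (SD, n = 5) in cage group 3. Against cage group 2 alone the differences were 0.022, -0.060 and -0.045 from the lowest to the highest dose, and against cage group 3 alone they were -0.18, -0.27 and -0.25. None of these passed the limma test, with adjusted p between 0.222 and 1.

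At 1 h no AXL difference passed the test. The 5 vehicle tumors had 186, 205, 226, 175 and 201 FPKM. The 5 tumors at 100 mg/kg had 221, 203, 240, 214 and 238 FPKM, all above the vehicle mean of 199 FPKM and 2 above every vehicle tumor (log2 difference 0.17, SE 0.11, limma adjusted p = 0.953). The differences were 0.046 (SE 0.11) at 30 mg/kg and 0.022 (SE 0.12) at 200 mg/kg, each with an adjusted p of 1. At 200 mg/kg the sign changed when single tumors were left out (-0.022 to 0.070). At 1 h, 0 of 4 members were called at any dose, and the shares of all genes called were 0%, 0.00767% and 0% at 30, 100 and 200 mg/kg. At an unadjusted limma p under 0.05 there were also 0 members, against 4.38%, 4.97% and 3.34% of all genes.

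Whether the effect of 200 mg/kg on AXL differed between studies was tested in the same fit. The 24 h effect less the 1 h effect was -0.56 (SE 0.16, limma adjusted p = 0.0904), and the 24 h effect less the 3-6 h effect was -0.38 (SE 0.14, adjusted p = 0.131). Neither passed, and 0.583% and 1.72% of all genes were called in these tests. Of the 4 members 0 were called in either, with 1 and 2 members at an unadjusted limma p under 0.05, against 13.2% and 16.3% of all genes. Without replicate 2 at 200 mg/kg and 24 h, the tumor with the AXL level nearest to vehicle, both passed (-0.66, adjusted p = 0.0150, and -0.49, adjusted p = 0.0232), and 24 h minus 1 h also passed without vehicle replicate 4 (-0.63, adjusted p = 0.0492). Time and study coincide and cannot be told apart.

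**Figure D2:**
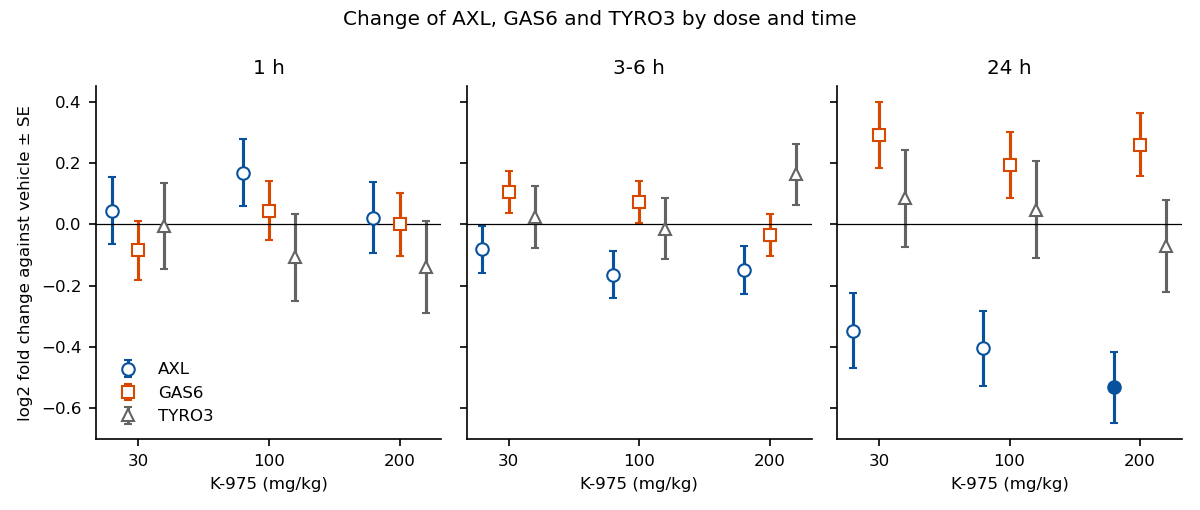
Log2 fold change against vehicle with its SE (bars) for AXL (circles), GAS6 (squares) and TYRO3 (triangles) at 30, 100 and 200 mg/kg in each study, with filled symbols for a limma adjusted p under 0.05. Only AXL at 200 mg/kg and 24 h is filled (-0.53), and at 24 h AXL lies below 0 and GAS6 above 0 at each dose.

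Ordered by their mean, the 15 conditions ran from 148 FPKM of AXL at 200 mg/kg and 24 h to 223 FPKM at 100 mg/kg and 1 h. The 3 lowest conditions were the 3 doses at 24 h. None of the 14 steps between neighbours in this order was larger than the larger SD of the pair. Untreated tumors had 200 ± 23.0 FPKM at 1 h, 174 ± 19.2 FPKM at 3-6 h and 204 ± 17.3 FPKM at 24 h (SD, n = 5 each). Vehicle and untreated tumors differed by -0.0094, 0.10 and 0.051 on the log2 scale at 1 h, 3-6 h and 24 h, and the sign at 1 h changed when single tumors were left out (-0.058 to 0.056). In these 3 comparisons 0 of 4 members were called by limma, and 0% of all genes were called in each. At an unadjusted limma p under 0.05 there were also 0 members, against 4.73%, 4.83% and 4.2% of all genes at 1 h, 3-6 h and 24 h.

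AXL is 1 of the 249 positive effector genes of YAP1-TEAD transcription in the study's own list, which was built on other datasets, and the other 4 family members are in neither its positive nor its negative list. Of 240 positive effectors tested, 62 fell and 1 rose at 200 mg/kg and 24 h, with a median log2 difference of -0.30, and AXL took place 62 from the lowest. Of all genes tested 3.61% fell and 3.8% rose there, with a median of 0.037. At 100 mg/kg and 24 h, 13 fell and 1 rose (0.537% and 0.583% of all genes), with AXL in place 63. At 30 mg/kg and 24 h limma called 0 of them (0.0384% of all genes), with AXL in place 39.

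The genes whose levels were most like those of AXL over the 91 libraries were KRT34 (Pearson's r = 0.86), a hair-type keratin, CLIC4 (0.85), an intracellular channel-like protein, ACTN1 (0.85), which crosslinks actin, ANLN (0.84), a scaffold of the cytokinetic ring, and FSTL1 (0.84), a secreted glycoprotein. Over the 19 group means the nearest were ACTN1 (r = 0.97), UAP1 (0.96), CLIC4 (0.94), FSTL1 (0.93) and KRT34 (0.93). These correlations are across libraries that share dose, study and capture, and are given as a description. CCN1 and CCN2, widely used readouts of TEAD activity, and TEAD4, a TEAD factor, had r = 0.71, 0.61 and 0.69 with AXL and ranked 44th, 204th and 78th of 13035 genes.

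GAS6 (ENSG00000183087.14, chromosome 13, 113820549 to 113864067, minus strand, 15 exons) encodes the ligand that activates AXL. Its mRNA had higher means with K-975 than with vehicle at 24 h, and no dose passed the test. The 4 vehicle tumors at 24 h had 574, 611, 556 and 594 FPKM. The 5 tumors at 200 mg/kg had 847, 554, 799, 589 and 756 FPKM, of which 3 lay above every vehicle tumor and 1 (replicate 2) below every one. Vehicle had a mean of 584 FPKM (SD 23.5, n = 4) and 200 mg/kg a mean of 709 FPKM (SD 130, n = 5), which did not pass (log2 difference 0.26, SE 0.10, limma adjusted p = 0.105). Without replicate 2 at 200 mg/kg it passed (0.34, adjusted p = 0.0201), as it did with untreated and vehicle tumors together as control (0.26, adjusted p = 0.0318).

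At the lower doses the tumors of 24 h did not overlap with vehicle in GAS6, and yet the differences did not pass over all genes. The share of all genes without such overlap was not counted. Untreated tumors at 24 h spread more widely than vehicle, at 589 ± 69.4 FPKM (SD, n = 5). Untreated replicate 3 stood 0.25 above their mean on the log2 scale. The 4 tumors at 30 mg/kg had 735, 668, 799 and 666 FPKM, all above the highest vehicle tumor (log2 difference 0.29, SE 0.11, limma adjusted p = 0.334). The 4 tumors at 100 mg/kg had 659, 661, 748 and 612 FPKM, the last only just above the highest vehicle tumor of 611 FPKM (0.20, SE 0.11, adjusted p = 0.418). The shallow libraries had 1433 FPKM at 30 mg/kg and 412 FPKM at 100 mg/kg, and with them the differences were 0.49 (adjusted p = 0.147) and 0.056 (adjusted p = 0.988).

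At 3-6 h the GAS6 differences were 0.11 (SE 0.068), 0.072 (SE 0.068) and -0.035 (SE 0.068) at 30, 100 and 200 mg/kg, with limma adjusted p between 0.785 and 0.958. At 1 h they were -0.085 (SE 0.097), 0.045 (SE 0.097) and 0.00043 (SE 0.10), with adjusted p between 0.992 and 1. Over the 15 conditions the mean of GAS6 ran from 565 FPKM at 30 mg/kg and 1 h to 725 FPKM in untreated tumors at 3-6 h, and no step between neighbours was larger than the larger SD of the pair. The means of untreated tumors alone were 656 FPKM at 1 h, 725 FPKM at 3-6 h and 589 FPKM at 24 h. The effect of 200 mg/kg at 24 h minus that at 3-6 h was 0.30 (SE 0.12, limma adjusted p = 0.196), and minus that at 1 h it was 0.26 (SE 0.15, adjusted p = 0.438). On the opposite strand, GAS6-AS1 shares 421 exon bases with GAS6, and an antisense transcript shares 67 with AXL. Whether fragments were counted by strand is not given in the sources used here, so reads of these pairs may not have been told apart.

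Genes most like GAS6 over the 91 libraries were NFIX (r = 0.83), a transcription factor, SULF2 (0.82), which trims heparan sulfate, PHLDB1 (0.82), KLHL31 (0.80) and MMP2 (0.80), a gelatinase of the extracellular matrix.

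Ligand and receptor were also compared within each library, where the scaling of the library cancels. This ratio was chosen after the values had been seen and is given as a description, without a test. At 24 h the FPKM ratio of GAS6 to AXL was 2.60, 2.79, 2.47 and 3.26 in the vehicle tumors and 6.15, 2.80, 5.55, 4.85 and 5.50 in the tumors at 200 mg/kg, of which 4 of 5 lay above every vehicle tumor. All 4 tumors at 30 mg/kg (3.88 to 4.96) and 3 of 4 at 100 mg/kg (2.91 to 5.77) also lay above vehicle. Untreated tumors at 24 h had ratios of 2.35 to 3.30, and 2 of these 5 lay above every vehicle tumor too. At 1 h no dosed tumor lay above the vehicle range of 2.51 to 3.83, and at 3-6 h 1 of 10 tumors at each dose lay above the vehicle range of 2.74 to 4.92. Untreated tumors at 3-6 h had ratios of 3.16 to 5.24.

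Tumors with more AXL than the mean of their own group tended to have less GAS6. Over 91 tumors, deviations of log2(FPKM + 1) from the means of the 19 groups had Pearson's r = -0.44 (two-sided permutation p = 2e-05, adjusted p = 0.00012 over 6 relations) and Spearman's rho = -0.44 (permutation p = 4e-05, adjusted p = 0.00024). The permutation moved deviations across groups, although those of a group sum to 0, so its p-values here and below are somewhat too small. Leaving out the 2 tumors with AXL deviations most distant from the median gave r = -0.39. Within studies r was -0.41 over 24 tumors at 1 h, -0.51 over 45 at 3-6 h and -0.38 over 22 at 24 h. For the levels themselves, not the deviations, GAS6 had r = -0.57 with AXL and ranked 12618th of 13035 genes. The genes ranked after it were still more negative, so the inverse relation was not particular to this pair. Deviations of AXL and TYRO3 had r = 0.17 (adjusted permutation p = 0.209) and those of GAS6 and TYRO3 r = 0.016 (adjusted permutation p = 0.885). A relative depth of the library had r = -0.13 with AXL (adjusted permutation p = 0.328), 0.20 with GAS6 (0.157) and -0.043 with TYRO3 (0.824).

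**Figure D3:**
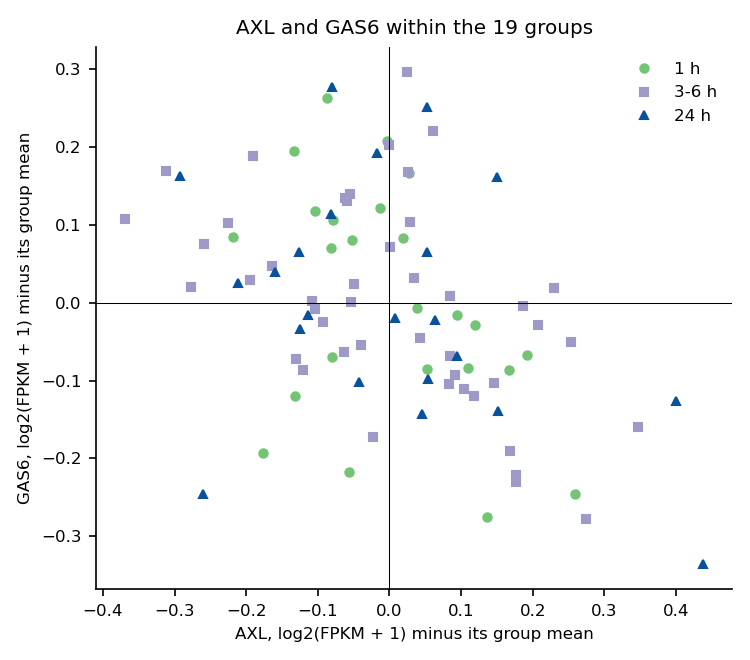
GAS6 (vertical axis) against AXL (horizontal axis), each as log2(FPKM + 1) minus the mean of the tumor's own group, with 1 point for each of 91 tumors and symbols by study. The points run from upper left to lower right (r = -0.44).

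TYRO3 (ENSG00000092445.11, chromosome 15, 41559034 to 41583586, plus strand) encodes the receptor best known from the nervous system. It was detected in every library kept, at low levels, and no dose changed it past the test at any time. At 24 h the vehicle tumors had 2.01, 1.77, 1.55 and 1.49 FPKM and the tumors at 200 mg/kg had 1.99, 1.79, 1.29, 0.840 and 2.18 FPKM. The groups overlapped, with tumors at 200 mg/kg both above and below the vehicle range. The log2 differences at 24 h were 0.086, 0.049 and -0.071 at 30, 100 and 200 mg/kg (SE 0.15 to 0.16, limma adjusted p between 0.835 and 0.924). At 3-6 h the value at 200 mg/kg was 0.16 (SE 0.10, adjusted p = 0.768), with 5 of 10 tumors above and 1 below every vehicle tumor. At 1 h it was -0.14 (SE 0.15, adjusted p = 1). The genes most like TYRO3 had r of at most 0.41 (PPARGC1B). TYRO3 has a pseudogene copy, so its values are uncertain where reads of both were not separated.

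MERTK (ENSG00000153208.16, chromosome 2, 111898479 to 112029561, plus strand) encodes the receptor of macrophages that take up dead cells. It reached 1 FPKM in 8 of 91 libraries, and it passed the filter only through these. All 8 were tumors given K-975, as were most of the 91 tumors. Of the 8, 2 were at 100 and 3 at 200 mg/kg at 3-6 h, and 1 was at each dose at 24 h. At 24 h the vehicle tumors were at 0, 0.113, 0 and 0.114 FPKM, the tumors at 30 mg/kg at 0.182, 0, 0 and 1.36, those at 100 mg/kg at 1.34, 0.241, 0.158 and 0.133, and those at 200 mg/kg at 1.18, 0, 0.0600, 0.409 and 0.259 FPKM. The 4 tumors at 100 mg/kg lay above every vehicle tumor, the lowest only just (0.133 against 0.114 FPKM), while at 30 and 200 mg/kg the groups overlapped. Since MERTK entered the fit only through dosed tumors and lies near 0, nothing is read from its test or from these positions. At 3-6 h vehicle tumors reached up to 0.784 FPKM, and tumors given K-975 up to 1.55 FPKM. The gene most like MERTK, ZNF687, had r = 0.44, which in values this sparse is no finding.

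PROS1 (ENSG00000184500.14, chromosome 3, 93873033 to 93974066, minus strand) encodes protein S, the anticoagulant cofactor that is also a ligand of TYRO3 and MERTK. It did not reach 1 FPKM in any library kept and was not tested. It was listed at 0 in all 5 vehicle tumors at 1 h and in 3 of 4 at 24 h, with the other at 0.137 FPKM. At 24 h the values were 0.391, 0, 0.273 and 0.140 FPKM at 30 mg/kg, 0.148, 0.326, 0.187 and 0 FPKM at 100 mg/kg, and 0.256, 0, 0.291, 0.190 and 0.153 FPKM at 200 mg/kg. Dosed tumors at 24 h held 10 values among 13 above the highest vehicle value of 0.137 FPKM, and untreated tumors held 2 values above 0 among 5. These counts use different limits, and at values this near 0 nothing is read from them. At 3-6 h the highest values were 0.512 FPKM with vehicle and 0.740 FPKM at 100 mg/kg, and 7 of 10 tumors at 200 mg/kg were listed at 0. PROS1 has a pseudogene copy as well, and the same limit holds.

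**Figure D4:**
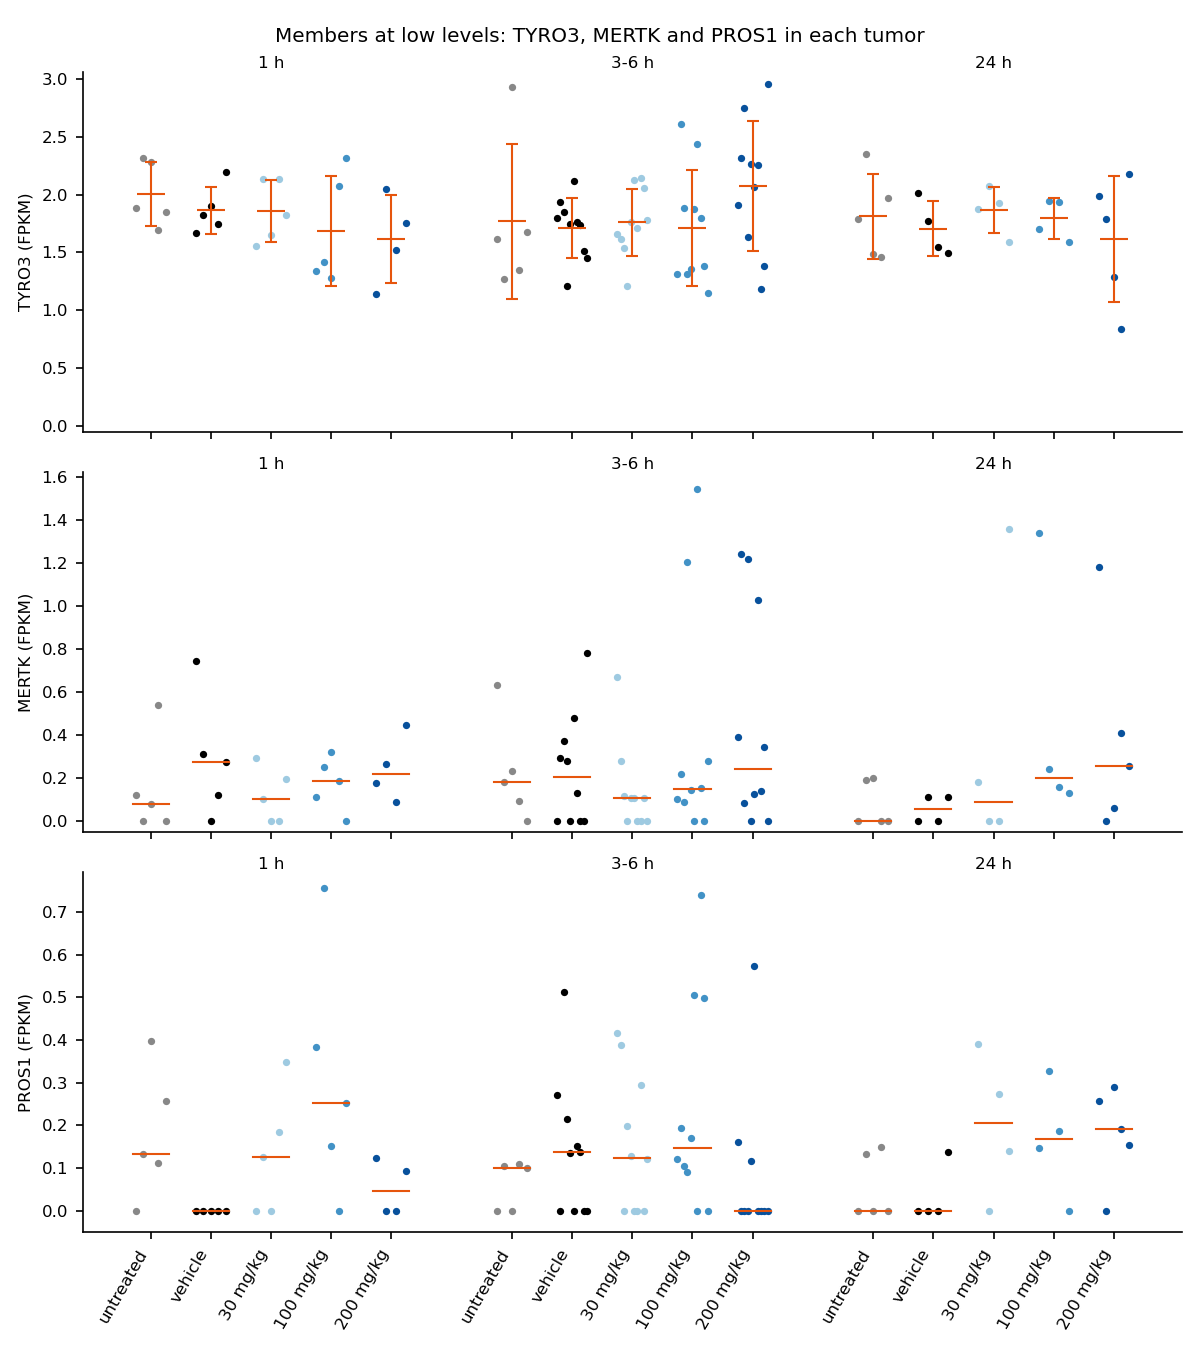
TYRO3 (top), MERTK (middle) and PROS1 (bottom) in FPKM on linear axes, with 1 point for each of the 91 tumors by treatment and time. Bars show the mean and SD for TYRO3 and lines the median for MERTK and PROS1. TYRO3 lies between 0.840 and 2.95 FPKM in every group, while most MERTK and PROS1 values are near 0.

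Around the receptors, 64 genes of 9 lists were looked up, and 53 of them passed the filter. Limma called 5 of them in 1 or another of the 9 dose comparisons, 4 at 200 mg/kg and 24 h and 1 at 100 mg/kg and 3-6 h. These were 7.55% and 1.89% of the 53 genes, against 7.41% and 0.43% of all genes tested, so that at 200 mg/kg and 24 h the lists were called at about the rate of all genes. All 5 calls were lost in the fit of all 94 libraries (limma adjusted p between 0.919 and 1), and each was lost without at least 1 single tumor.

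Among 18 adaptors and effectors that TAM kinases share with many other receptors, 1 rose and 1 fell at 200 mg/kg and 24 h, with a list median of 0.098. Of all genes tested 3.8% rose and 3.61% fell, with a median of 0.037. SOCS3, a feedback inhibitor of cytokine and kinase signals, had 28.6, 28.7, 29.0 and 26.3 FPKM with vehicle and 11.7, 21.4, 14.6, 16.9 and 19.6 FPKM with 200 mg/kg. Untreated tumors at 24 h had 25.2, 28.9, 18.0, 20.7 and 27.4 FPKM, with 18.0 and 20.7 FPKM inside the range of the dosed tumors. All 5 dosed tumors lay below vehicle (log2 difference -0.73, SE 0.19, limma adjusted p = 0.00852). Without replicate 1 at 200 mg/kg the adjusted p was 0.0592. PLCG1, a phospholipase recruited by active receptors, was 21.4 to 30.7 FPKM with vehicle and 30.3 to 43.4 FPKM with 200 mg/kg, where 4 of 5 tumors lay above every vehicle tumor (0.56, SE 0.17, adjusted p = 0.0351, and 0.0640 with only the groups compared). Untreated tumors at 24 h had 20.0 to 40.8 FPKM of PLCG1. PIK3R2, a regulatory subunit of PI3K that was chosen after its values were seen, lay above vehicle in all 5 tumors and did not pass (0.36, SE 0.12, adjusted p = 0.0633). The share of all genes without overlap between these groups, as in SOCS3 and PIK3R2, was not counted. At an unadjusted limma p under 0.05 there were 21.9% of all genes in this comparison.

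The enzymes that activate the ligands did not change past the test. GGCX, VKORC1 and VKORC1L1 serve the vitamin K cycle that GAS6 and protein S need, and FURIN is a propeptide protease. Limma called 0 of these 4 at 200 mg/kg and 24 h, with differences from -0.33 (VKORC1L1) to 0.085 (FURIN). Among the genes of receptor shedding, ADAM10, a protease that cuts AXL from the cell surface, fell at 100 mg/kg and 3-6 h. It was 653 to 853 FPKM in the 10 vehicle tumors and 630 to 713 FPKM in the 10 tumors at 100 mg/kg (-0.20, SE 0.049, limma adjusted p = 0.0280, and 0.112 after quantile normalization). At 30 and at 200 mg/kg and 3-6 h, limma called 0 of the shedding genes. ADAM10 was 620 to 837 FPKM at 200 mg/kg and 3-6 h, and 697 to 870 FPKM in untreated tumors of that study. ADAM10 did not pass at 200 mg/kg and 24 h (-0.099, limma adjusted p = 0.458), nor did ADAM17 (0.16, adjusted p = 0.403).

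Of the other receptors and bridges for phosphatidylserine, 5 of 9 were tested and 1 rose at 200 mg/kg and 24 h (3.8% of all genes), with a list median of 0.43 against 0.037 for all genes. ITGB5, the integrin chain that pairs with ITGAV to bind MFGE8, had 36.5, 27.7, 24.1 and 36.8 FPKM with vehicle and 64.2, 34.7, 55.5, 47.5 and 54.7 FPKM with 200 mg/kg. In 4 of 5 tumors it lay above vehicle (0.69, SE 0.20, limma adjusted p = 0.0260, and 0.0721 with only the groups compared). MFGE8 itself did not pass (0.47, adjusted p = 0.138).

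The list around the protein S and protein C anticoagulant system also held F3, a gene of coagulation itself and 1 of the study's positive effectors. Of the 8 genes of this list 4 were tested, and 1 (F3) fell at 200 mg/kg and 24 h (3.61% of all genes). The list median was -0.53 against 0.037 for all genes, and no fall of the anticoagulant system is read from it. F3, tissue factor, which starts coagulation, had 105, 110, 136 and 68.2 FPKM with vehicle and 19.7, 116, 29.7, 30.4 and 34.2 FPKM with 200 mg/kg. All tumors but replicate 2 lay below vehicle (-1.43, SE 0.39, limma adjusted p = 0.0162, and 0.0866 with only the groups compared). That tumor was also the 1 dosed tumor of its group with AXL in the range of vehicle. Limma called 0 of 5 engulfment genes, 0 of 7 genes of phosphatidylserine exposure, 0 of 2 other described ligands and 0 of 5 receptor tyrosine kinases that pair with AXL. In the last list EGFR was at 233 FPKM in the mean of all libraries (-0.15 at 200 mg/kg and 24 h, adjusted p = 0.189) and MET at 206 FPKM (0.052, adjusted p = 0.861).

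**Figure D5:**
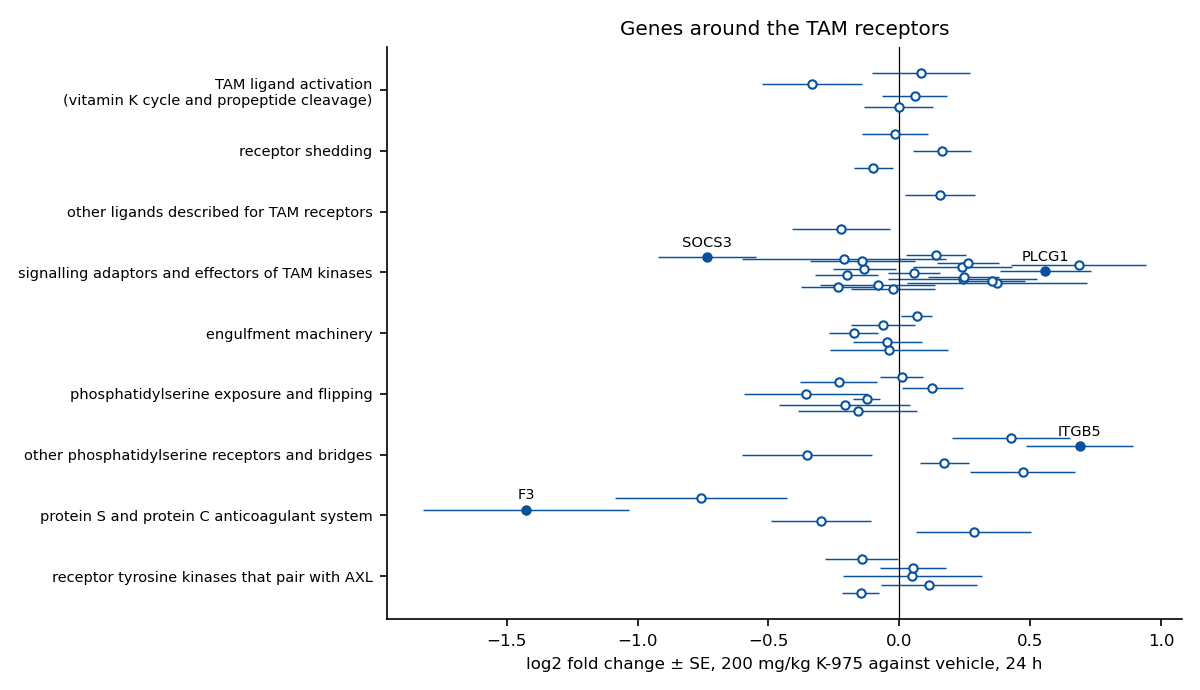
Log2 fold change with its SE (bars) of each tested gene of the 9 lists at 200 mg/kg K-975 against vehicle at 24 h, with filled points and names for a limma adjusted p under 0.05. The 4 filled genes are SOCS3 and F3 to the left of 0 and PLCG1 and ITGB5 to the right.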

How the data were processed

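RNA from 94 NCI-H226 xenografts in 19 groups was sequenced by the authors after KAPA library preparation and HyperCap enrichment. FPKM values per transcript entry were deposited by the authors, whose processing notes name STAR and GRCh38. The quantification tool, its version, the handling of mouse reads and the counting strand are not given in the sources used here. The members, the gene lists, the markers and the exclusion of 3 shallow libraries were chosen with earlier results of these data known.

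For 284 gene IDs with several entries 1 entry was kept, which left 20239 genes. Libraries with at least 10000 genes at 1 FPKM were kept (91). Genes at 1 FPKM or more in at least 4 libraries (13036) were fitted with limma 3.58.1 in R 4.3.3 on log2(FPKM + 1), with a pseudocount of 1, 1 coefficient per group and moderated variances (trend, robust), with Benjamini-Hochberg adjustment over all genes and a threshold of 0.05. Replicates are tumors of separate animals, numbered in accession order. The pseudocount makes the differences of low genes too small. The named genes are the 5 members and the list genes called in a comparison of a dose with vehicle, and other list genes named were chosen after their values were seen. A list gene is not reported here and was left out of its list's counts and median. The fit was tested on simulated data. Alternatives were all 94 libraries, a pseudocount of 0.1, no filter, quantile normalization, only the groups compared, other controls, and each replicate left out in turn. Promoters came from RefSeq (GRCh38.p14). Permutation tests used scipy 1.17.1 with 100000 resamples. The study's effector list, built on other datasets, was used for membership, for counts of its genes called in the limma fit and for AXL's place among them.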

Additional observations from a re-analysis of the deposited data

Results flagged for a closer look

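Each member was examined for a tumor that stood apart from the others of its group, judged by the gap to the nearest other tumor relative to the range of the group (Dixon's criterion at 95%). Of 94 sets of values examined 13 had such a tumor, and chance gives about 1 in 20.

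The shallow library at 30 mg/kg and 24 h (replicate 1) stood apart in 3 members, with AXL at 1260 FPKM, GAS6 at 1433 FPKM and TYRO3 listed at 0. Among libraries kept, AXL was low in vehicle replicate 4 at 24 h (182 FPKM), and without that tumor the fall at 200 mg/kg was no smaller. GAS6 was low in replicate 4 of cage group 9 at 30 mg/kg and 3-6 h (575 FPKM), and TYRO3 was low in replicate 4 of vehicle cage group 2 at 3-6 h (1.21 FPKM).

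MERTK stood apart upwards in 5 groups. The values were 1.34 FPKM in replicate 1 at 100 mg/kg and 24 h, 1.36 FPKM in replicate 5 at 30 mg/kg and 24 h, 1.20 FPKM in replicate 4 of cage group 6 and 1.55 FPKM in replicate 2 of cage group 7, both at 100 mg/kg and 3-6 h, and 0.539 FPKM in untreated replicate 4 at 1 h. PROS1 stood apart upwards in vehicle replicate 4 at 24 h (0.137 FPKM) and in replicate 1 of cage group 5 at 200 mg/kg and 3-6 h (0.574 FPKM), where the other tumors of the group were listed at 0.

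AXL at 100 mg/kg had means on opposite sides of vehicle in 2 studies. At 24 h its mean was changed by -23.7% from vehicle, with all 4 tumors below the vehicle mean, and at 1 h by 12.3%, with all 5 tumors above it. Neither change passed the test (limma adjusted p = 0.0768 at 24 h and 0.953 at 1 h), and the difference between these studies was not tested.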

How the results depend on the processing

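No paired analysis was possible because replicate numbers were given in accession order and link no tumors across groups. The AXL call at 200 mg/kg and 24 h held with a pseudocount of 0.1, without a filter, after quantile normalization and with vehicle and untreated tumors as control, and was lost with all 94 libraries and with only the groups compared. The cause of the changes below was not tested. FPKM hold no reads, so the depth limits of MERTK and PROS1 are unknown.

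Counts of genes called by limma moved by over 1.5 times as follows. The fit of all 94 libraries called 0 genes at 1 h with 100 mg/kg. At 3-6 h it called 1, 1 and 0 genes and at 24 h 2960, 2 and 0 genes, from the lowest to the highest dose. The trends then gave 0 at 3-6 h and 3 at 24 h, and both differences between studies gave 0. With only the groups compared, 1 was called at 30 mg/kg and 0 at 100 mg/kg at 1 h. At 3-6 h that fit called 1, 21 and 0 from the lowest to the highest dose, and at 24 h 32, 6 and 275. Its trends gave 6 at 3-6 h and 305 at 24 h, and its differences between studies gave 30 (24 h less 1 h) and 117 (24 h less 3-6 h). Without a filter, 6 (100 mg/kg) and 3 (200 mg/kg) were called at 1 h, and with 30 mg/kg 4 at 3-6 h and 9 at 24 h. The same fit called 2 for vehicle at 3-6 h, 3 for the trend at 1 h and 141 for 24 h less 3-6 h. Quantile normalization gave 8 at 30 mg/kg and 24 h. Vehicle and untreated tumors as control gave 0 at 100 mg/kg and 1 h, 1, 97 and 58 at 3-6 h and 79, 412 and 1688 at 24 h, from the lowest to the highest dose. Vehicle cage group 2 alone gave 0 at 30 mg/kg and 36 at 100 mg/kg, and cage group 3 alone 49 at 30 mg/kg and 27 at 200 mg/kg.

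With 1 tumor left out, the counts at 30, 100 and 200 mg/kg ran from 0 to 1 and 0 to 2 at 1 h (30 and 100 mg/kg), from 1 to 3, 32 to 82 and 4 to 27 at 3-6 h, and from 0 to 3, 30 to 290 and 389 to 1537 at 24 h. The trends ran from 9 to 44 at 3-6 h and 307 to 1258 at 24 h, the differences between studies from 35 to 265 (1 h) and 63 to 633 (3-6 h), and vehicle against untreated from 0 to 2 at 3-6 h and 0 to 1 at 24 h.

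The sign of uncalled differences turned in these cases. For AXL it was 0.022 at 30 mg/kg and 3-6 h with vehicle cage group 2 alone and 0.24 at 30 mg/kg and 24 h with all 94 libraries. For GAS6 it was -0.021 at 100 mg/kg and -0.065 at 200 mg/kg and 1 h with vehicle and untreated tumors, -0.032 at 200 mg/kg and 1 h with all 94 libraries, 0.020 at 200 mg/kg and 3-6 h with cage group 3 alone, and 0.016 for vehicle at 24 h after quantile normalization. For TYRO3 it was -0.22 at 30 mg/kg and 24 h with all 94 libraries and -0.060 at 100 mg/kg and 24 h after quantile normalization. For MERTK it was 0.043 (pseudocount 0.1) and 0.047 (vehicle and untreated tumors) at 200 mg/kg and 1 h.

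With 1 tumor left out, AXL ran from -0.022 to 0.070 at 200 mg/kg and 1 h, from -0.0064 to 0.030 in its trend at 1 h and from -0.058 to 0.056 for vehicle at 1 h. GAS6 ran from -0.0039 to 0.11 (100 mg/kg) and -0.048 to 0.066 (200 mg/kg) at 1 h, from -0.057 to 0.0021 at 200 mg/kg and 3-6 h, and from -0.041 to 0.057 for vehicle at 24 h. TYRO3 ran from -0.039 to 0.035 at 30 mg/kg and 1 h, from -0.011 to 0.051 (30 mg/kg) and -0.070 to 0.026 (100 mg/kg) at 3-6 h, and from -0.15 to 0.049 at 200 mg/kg and 24 h. MERTK ran from -0.12 to 0.081 at 200 mg/kg and 1 h and from -0.016 to 0.17 at 100 mg/kg and 3-6 h.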
